A study of Mus musculus with 60 samples.

Results

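Peaks of the histone mark H3K27me3 were examined at 9 genes of neuron subtype identity, Phox2a, Pou4f1, Pou4f2, Pou4f3, Tlx1, Tlx3, Ebf1, Ebf2 and Ebf3, out of 21829 protein-coding genes in the annotation. These genes were chosen by name, and each was described by the peaks within 1.5 kb of its start sites and by those over the gene. The data came from CUT&RUN, which uses antibody-tethered cleavage to release the bound chromatin. The cells were mouse embryonic stem cells (ESCs) taken through a protocol meant to yield anterior neural progenitors. The 3 genotypes were wild type (WT), Tet1 KO and Tet1 MUT, the last with a catalytically dead TET1. All lines, WT included, carried the labelled background B6129S6F1 Tet1<tm1Koh>; the MUT lines were edited by CRISPR HDR and, in the study's methods, were single clones of a WT parent. Each genotype was sampled as 2 lines on days 0, 2, 3 and 5, and also on day 5 after 5 µM of the Wnt inhibitor XAV from day 2 (day 5 XAV), which makes 30 H3K27me3 libraries beside 30 IgG libraries. WT70 and WT72 were used throughout, KO15 with KO25 and then KO1, and CM59 with CM40 and then CM69 for MUT. The partner lines of KO15 and CM59 were exchanged between day 2 and day 3, so line and time cannot be told apart there. In the paper, day 5 KO cells without XAV were nearly all mesoderm and endoderm. WT cells were mainly ectoderm, and MUT cells mostly ectoderm with some of the other layers. The paper places the first divergence of KO at day 3, and with XAV it describes forebrain cells in all 3 genotypes. Cell type therefore cannot be told apart from genotype at day 5 without XAV, or from XAV in KO and MUT. The labels name the lines but do not say whether the libraries of a line were grown apart. The p-values therefore measure the spread between these libraries, which may be partly technical. The 10 libraries of a genotype repeat the same few lines over the time points, and the tests treat them as separate. An n of 10 is thus not a number of lines, and its SD also spans the time points. The labels conflict at 1 point: the free text of the KO25 samples at day 0 and day 2 names WT70 files, whereas their titles, line and genotype fields name KO25, which was followed.

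H3K27me3 is deposited by Polycomb repressive complex 2 and covers the promoters of developmental regulators while they are silent. In ESCs such promoters often carry an activating mark as well, and the repressive mark is kept or lost as a lineage is chosen. Transcription factors that fix the identity of a neuron are switched on late, in cells leaving the cell cycle. PHOX2A is the homeodomain factor of noradrenergic and cranial motor neurons. POU4F1, POU4F2 and POU4F3 are POU factors of sensory neurons, retinal ganglion cells and inner ear hair cells, respectively. TLX1 and TLX3 are homeodomain factors that select an excitatory over an inhibitory fate in dorsal spinal neurons. EBF1, EBF2 and EBF3 are helix-loop-helix factors of neuronal differentiation, EBF1 also of B cells and EBF2 also of brown fat.

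The promoters on which the results turn are shown as RefSeq gives them in build GRCm38.p6, as 300 bases that run from 250 before to 50 after the annotated start, with every CG in capitals. RefSeq promoters were found for 7 of the 9 genes, 8 sequences in all. Phox2a is shown as the gene whose peak came and went between genotypes, at chr7:101818063-101818362 on the plus strand. Both RefSeq starts of Ebf1 are shown, at chr11:44617850-44618149 and chr11:44619978-44620277 on the plus strand, because the mark differed between them. Pou4f1, at chr14:104467950-104468249 on the minus strand, held the most CG of the 8, and Tlx1, at chr19:45150465-45150764 on the plus strand, lay under the strongest peaks by total signal.
Phox2a: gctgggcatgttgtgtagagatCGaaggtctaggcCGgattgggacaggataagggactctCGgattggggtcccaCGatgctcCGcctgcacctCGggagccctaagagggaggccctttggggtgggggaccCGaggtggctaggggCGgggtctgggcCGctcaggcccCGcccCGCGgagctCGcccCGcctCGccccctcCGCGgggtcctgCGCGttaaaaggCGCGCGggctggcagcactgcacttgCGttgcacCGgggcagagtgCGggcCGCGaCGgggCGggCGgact
Ebf1, first start: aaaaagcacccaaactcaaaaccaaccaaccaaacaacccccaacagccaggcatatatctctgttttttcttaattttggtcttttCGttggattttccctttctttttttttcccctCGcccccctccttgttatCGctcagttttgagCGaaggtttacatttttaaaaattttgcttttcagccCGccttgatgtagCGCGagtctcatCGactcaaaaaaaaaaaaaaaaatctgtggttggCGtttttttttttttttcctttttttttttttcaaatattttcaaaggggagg
Ebf1, second start: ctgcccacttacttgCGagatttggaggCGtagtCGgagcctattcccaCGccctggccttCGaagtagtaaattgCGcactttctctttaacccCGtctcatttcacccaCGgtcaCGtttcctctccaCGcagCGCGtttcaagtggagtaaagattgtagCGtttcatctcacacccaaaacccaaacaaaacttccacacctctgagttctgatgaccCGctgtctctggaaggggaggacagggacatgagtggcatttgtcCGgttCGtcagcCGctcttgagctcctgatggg
Pou4f1: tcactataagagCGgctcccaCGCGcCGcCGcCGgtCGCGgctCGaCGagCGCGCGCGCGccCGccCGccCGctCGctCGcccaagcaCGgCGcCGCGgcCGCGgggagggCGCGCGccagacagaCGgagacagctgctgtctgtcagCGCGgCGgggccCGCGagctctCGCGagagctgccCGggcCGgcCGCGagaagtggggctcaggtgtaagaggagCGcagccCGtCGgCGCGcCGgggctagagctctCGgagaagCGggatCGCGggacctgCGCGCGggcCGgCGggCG
Tlx1: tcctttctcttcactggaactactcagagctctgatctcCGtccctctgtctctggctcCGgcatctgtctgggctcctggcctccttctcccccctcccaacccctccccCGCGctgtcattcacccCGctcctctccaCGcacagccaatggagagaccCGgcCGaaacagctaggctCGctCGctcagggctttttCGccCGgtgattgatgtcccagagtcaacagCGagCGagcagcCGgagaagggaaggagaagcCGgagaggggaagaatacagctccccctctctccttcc
Pou4f1 held 57 CG, more than 99.8% of the 32851 RefSeq promoters of this length, and Ebf3 held 46, more than 98.4%. Phox2a followed with 30 CG, more than 88.3%. The second Ebf1 start held 17 CG and the first 9, against a median of 7 over all promoters, and Tlx1 held 16. The palindromic EBF recognition motif and the homeodomain core TAATTA, each of which reads the same on both strands, were found in 0 of the 8 sequences, against 0.904% and 5.29% of all promoters. The sequences of Tlx1 (16 CG), Pou4f2 (18) and Tlx3 (18) lay wholly under a peak in 30 of 30 libraries. Those of Ebf3 (46) and the second Ebf1 start (17) did so in 29, and that of Pou4f1 (57) in 25. The Phox2a sequence (30) did so in 13 and the first Ebf1 start (9) in 6.

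Peak values are a signal without scaling for library size, so each peak was placed by its rank percentile, the share of peaks in its library with no higher total signal; 100 is the strongest peak and 0 stands for no peak. Libraries held 704 to 3466 peaks, with medians of 1446 in WT, 1994 in KO and 1680 in MUT. Read depth is unknown from these files. Peaks were absent from 8 of 8 housekeeping promoters in all 30 libraries. They were called at 1 to 4 of 8 ESC promoters per library, at 4 to 7 of 8 promoters of anterior neural progenitors and at 7 or 8 of 8 of primitive streak, mesoderm and endoderm; these calls show the mark and not expression.

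Of the 9 promoters, 7 to 9 were called in each library, with a median of 8. The mean was 7.8 ± 0.789 in WT, 8.5 ± 0.707 in KO and 8.1 ± 0.738 in MUT (SD, n = 10 each), with overlapping ranges. Pou4f1, Pou4f2, Pou4f3, Tlx1, Tlx3 and Ebf2 were called in all 30 libraries, a state shared by 13.8% of the promoters called in at least 2 libraries (439 of 3178). Ebf3 was called in 29 libraries, Ebf1 in 22 and Phox2a in 13. The order of median rank percentiles was Tlx1 (99.0), Ebf3 (96.7), Ebf2 (93.4), Tlx3 (92.2), Pou4f3 (90.1), Pou4f1 (86.2), Pou4f2 (78.4), Ebf1 (42.9) and Phox2a (0). Within libraries Tlx1 ranked above Ebf3 in 30 of 30 and Ebf3 above Ebf2 in 28. The order was looser further down. Ebf2 ranked above Tlx3 and Tlx3 above Pou4f3 in 24 libraries each, Pou4f3 above Pou4f1 in 22 and Pou4f1 above Pou4f2 in 23, so these neighbours overlapped from library to library.

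**Figure D1:**
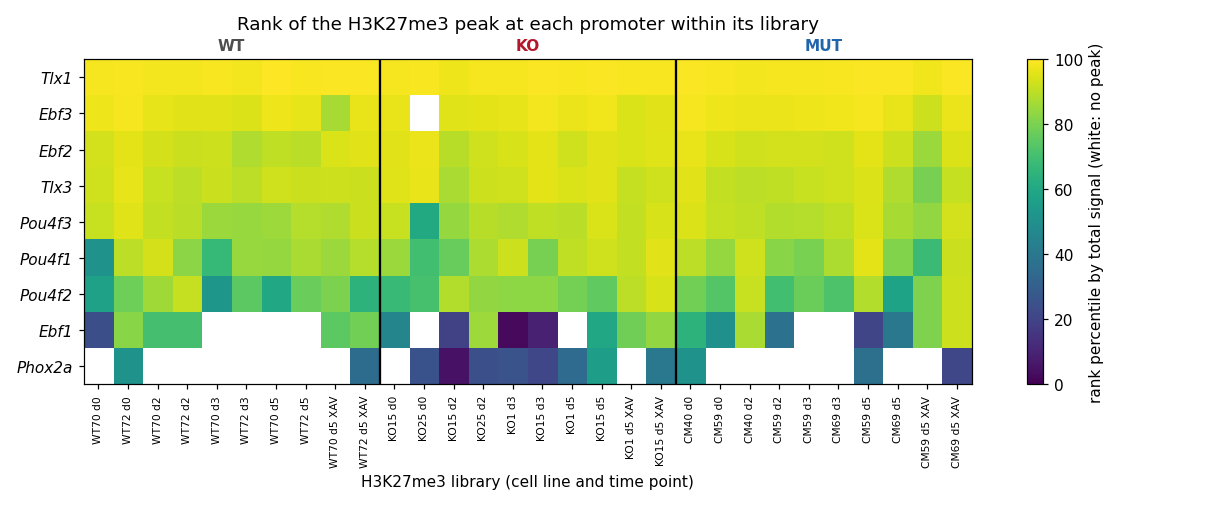
Rank percentile of the strongest H3K27me3 peak at each promoter (rows, ordered by median) in each of the 30 libraries (columns, by genotype, time point and line), with white for no peak. Tlx1 stays between 97.6 and 99.7, while Ebf1 is white at day 3 and day 5 in WT and Phox2a is coloured in 8 of 10 KO libraries.

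Tlx1 (chr19:45150680-45156943, plus strand) carried one of the strongest H3K27me3 domains of the genome in these cells by total signal. Its peak took places 5 to 36 among all peaks of a library, was 18.2 to 25.3 kb wide and covered the whole gene in every library. Among the 439 promoters called in all 30 libraries, 89.5% had a narrower median peak and 1.82% a smaller SD of rank percentile (0.52 for Tlx1). The upstream edge lay between -14.0 and -10.8 kb of the gene start. The downstream edge was at 10.7 to 11.47 kb in 27 libraries and at 7.29 to 7.33 kb in KO15 at day 0, KO25 at day 0 and KO15 at day 3. Both day 0 KO libraries thus had peaks of 18.3 and 18.2 kb where WT had 23.0 and 22.0 kb and MUT 23.4 and 23.2 kb.

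Tlx3 (chr11:33200752-33203589, minus strand), the other TLX gene, had a smaller domain, with an SD of rank percentile of 3.29 over the 30 libraries. Its peak was 9.69 to 19.2 kb wide, with a median of 12.4 kb, and took places 77 to 202. The downstream edge fell within 0.1 kb of its median of 8.79 kb in 23 of 30 libraries. Peaks were widest at day 2, with a median of 14.3 kb against 12.1 kb at day 0 and 12.4 kb at day 3. Over all peaks of a library, the median width was also mostly higher at day 2. It ran from 5975.5 to 9155 bp there, against 4116.5 to 6212 bp at day 0 and 3676 to 6089 bp at day 3.

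Ebf3 (chr7:137193673-137314445, minus strand) had the highest median rank of the EBF genes. One peak of 8.82 to 22.3 kb lay over its main start in 29 libraries, at places 33 to 183. The exception was KO25 at day 0, in which pieces flanked the start and 51.3% of the 10 kb to either side was covered, against 65.7% to 83.6% elsewhere. KO15 at day 0 had the next narrowest value at day 0, 14.8 kb, against 17.9 and 21.1 kb in WT. Ebf2 (chr14:67233292-67430918, plus strand) had peaks of 9.60 to 14.0 kb at places 75 to 153 by total signal. Its upstream edge was within 0.1 kb of the median of -5.44 kb in 19 of 30 libraries. The Ebf2 rank percentile had an SD of 2.69 over the 30 libraries. Ranked by signal per bp, its changes were 12.7 points from day 0 to day 2 and -13.6 from day 2 to day 3.

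The POU4F genes differed in how far the mark reached. Pou4f3, on chromosome 18, had peaks of 2.76 to 12.1 kb and places 114 to 1127, the last of which was KO25 at day 0; the next lowest place was 227. Pou4f1 (chr14:104461676-104467999, minus strand) had peaks of 3.44 to 23.2 kb. Its domain lay mainly upstream, with a median upstream edge of -8.58 kb and a median downstream edge of 1.08 kb. In 5 of 30 libraries the peak stopped short of the start and left the 300 bases shown above bare: KO15 and KO25 at day 0, CM59 at day 3, and WT70 and CM69 at day 5. Over the gene itself the covered share ran from 0% to 100%, with a median of 22.7%. With at least 500 bp of the window required, Pou4f1 was called in 27 libraries.

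Pou4f2 (chr8:78433010-78436645, minus strand) had peaks of 4.45 to 25.1 kb, the widest range among the 6 genes called in all libraries. At day 0 the 6 libraries ran from 4.45 to 7.21 kb, with a median of 4.76 kb. At day 2 they ran from 4.70 to 25.1 kb, with a median of 18.7 kb, and in WT72, KO15 and CM40 a single peak reached 19.0 to 19.2 kb downstream. At day 3 the median was back at 7.35 kb and the highest value at 10.1 kb. Peaks of the whole library were mostly wider at day 2 too, as given above for Tlx3. The part of that shift in the Pou4f2 widths was not tested. A second block, which began 7.81 to 8.71 kb downstream of the start, was separate in all 6 libraries of day 0 and part of the promoter peak in those 3 of day 2.

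**Figure D2:**
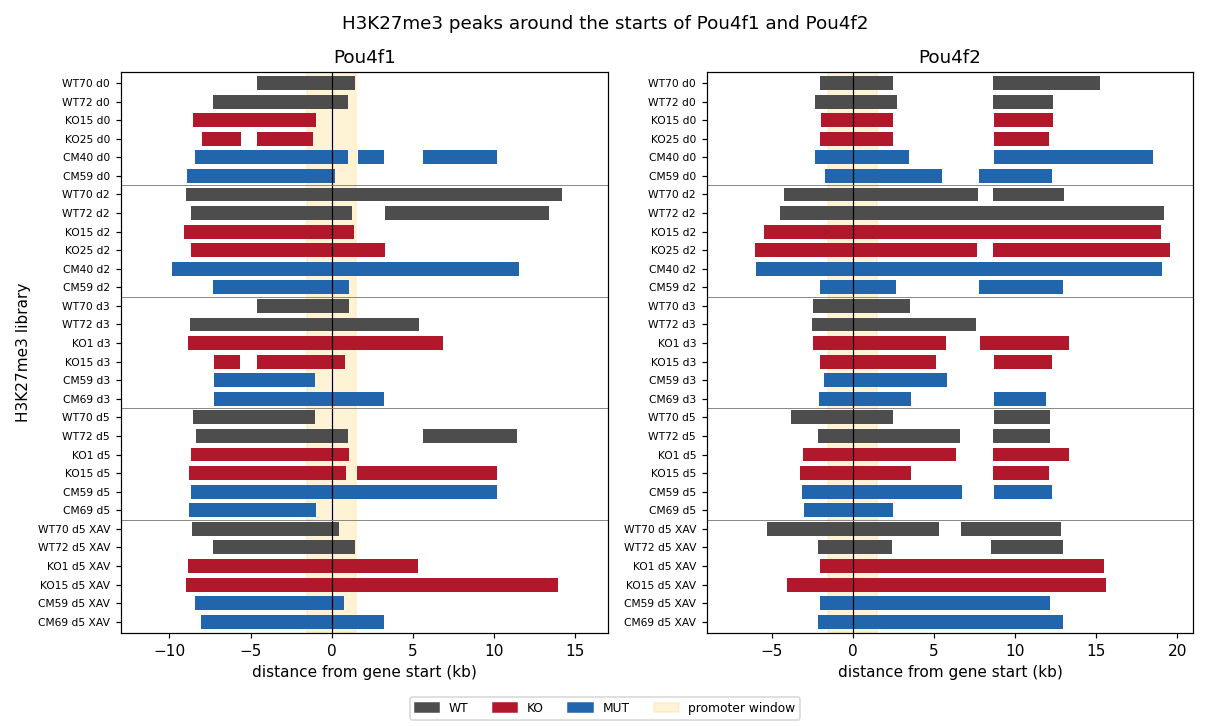
Extent of every H3K27me3 peak around the starts of Pou4f1 and Pou4f2 (horizontal axis, kb from the gene start, positive into the gene) in each library (rows, by time point), with the promoter window shaded. Single Pou4f2 peaks reach 19.0 to 19.2 kb in 3 libraries of day 2, and Pou4f1 peaks end before the start in 5 libraries.

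Ebf1 (chr11:44617317-45008091, plus strand) was marked in 2 blocks with the annotated gene start in a gap between them. In KO1 at day 5, for example, the upstream block ran from -6.71 to -2.68 kb and the downstream block from 2.17 to 6.12 kb. Each block was found in 29 of 30 libraries, all but WT70 at day 3, which held 969 peaks. A peak lay over the start itself in 16 libraries: 2 of 6 at day 0, 5 of 6 at day 2, 2 of 6 at day 3, 1 of 6 at day 5 and 6 of 6 at day 5 XAV. The RefSeq starts of Ebf1 lie 783 and 2911 bases downstream of the annotated gene start. The 300 bases of the first overlapped a peak in 10 libraries, with 0 of 12 at day 3 and day 5 and 2 of 6 at day 5 XAV. Those of the second lay under a peak in 29 of 30, and in 6 of 6 at day 5 both with and without XAV.

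The rank of the Ebf1 promoter moved with time and with XAV. At day 2 its percentile was 70.6 in WT70, 70.4 in WT72, 19.7 in KO15, 85.3 in KO25, 87.3 in CM40 and 37.5 in CM59. At day 3 it was 2.61 in KO1 and 9.09 in KO15, with peaks of 1.80 and 1.86 kb, and 0 in the other 4 libraries. The day 2 and day 3 values did not overlap. The difference from day 2 to day 3 was -59.8 percentile points (exact p = 0.00926, the smallest that 216 splits allow; adjusted p = 0.127). Such a p under 0.05 was reached in this step by 23.7% of 2014 promoters, and the median change over all of them was -8.95. Among the 704 strongest peaks of each library the difference was -25.1 (exact p = 0.0833). In a window of 3 kb on either side, which reaches the flanking blocks, Ebf1 was called in 6 of 6 libraries at day 2 and 5 of 6 at day 3.

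At day 5 the Ebf1 percentile was 0 in WT70, WT72 and KO1, 59.8 in KO15, 21.1 in CM59 and 40.1 in CM69. With XAV it was 74.8 in WT70, 78.6 in WT72, 78.3 in KO1, 83.7 in KO15, 80.7 in CM59 and 92.6 in CM69. All 6 lines were higher with XAV and the groups did not overlap. The mean difference was 61.3 points (exact p = 0.00926, adjusted p = 0.444), in a comparison in which 6.52% of 2348 promoters had p under 0.05 and the median difference was -3.22. By calls the difference was 6 of 6 against 3 of 6 libraries (exact p = 0.167), where 0.383% of promoters passed. Limited to the 704 strongest peaks of each library, the call was 6 of 6 with XAV and 0 of 6 without (exact p = 0.00926). In a window of 3 kb on either side, which takes in more of the flanking blocks, Ebf1 was called in 6 of 6 libraries both with and without XAV (exact p = 1), and the rank difference was 30.3 points (exact p = 0.00926). The covered part of the 10 kb on either side rose from 7.80 ± 0.816 kb to 11.53 ± 0.874 kb (SD, n = 6), which as a share of that stretch gave an exact p of 0.00926; this measure was chosen after seeing the data. In CM59 and CM69 a single peak ran across the start. In WT70 and WT72 the peak over the start ended at 0.024 and 0.037 kb and the next began at 1.41 and 1.51 kb. In KO1 and KO15 it ended at 0.215 and 0.024 kb and the next began at 0.905 and 0.859 kb. Leaving out any 1 line gave differences in rank of 52.2 to 70.3 points (exact p = 0.0278 in each), and with the lines paired the exact p was 0.0312, the smallest that sign flips in 6 lines allow.

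**Figure D3:**
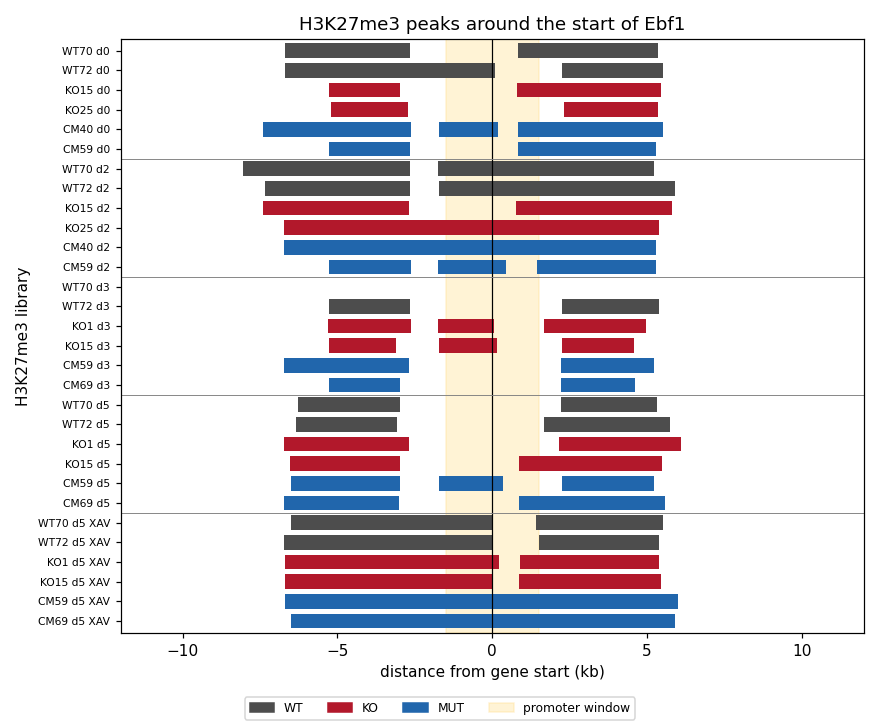
Extent of every H3K27me3 peak around the start of Ebf1 (horizontal axis, kb from the gene start, positive into the gene) in each library (rows, by time point), coloured by genotype, with the promoter window shaded. The 2 blocks flank the start at day 3 and day 5, and a peak covers the start in 6 of 6 libraries of day 5 XAV.

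Phox2a (chr7:101818313-101822726, plus strand) was the only one of the 9 genes without a called H3K27me3 peak in most libraries. It was called in 2 of 10 WT, 8 of 10 KO and 3 of 10 MUT libraries. In WT the peaks were 5.94 kb in WT72 at day 0 and 5.29 kb in WT72 at day 5 XAV. In KO they were 4.00 kb in KO25 at day 0, 7.11 and 7.25 kb in KO15 and KO25 at day 2, 5.82 and 4.79 kb in KO1 and KO15 at day 3, 5.49 and 5.98 kb in KO1 and KO15 at day 5 and 6.14 kb in KO15 at day 5 XAV. In MUT they were 5.64 kb in CM40 at day 0, 5.15 kb in CM59 at day 5 and 5.34 kb in CM69 at day 5 XAV. Both KO libraries were called and both WT libraries were not at day 2, day 3 and day 5. The share of all promoters with this pattern was not computed. At day 3 and day 5 the KO libraries held 1849 to 2738 peaks and the WT libraries 969 to 1385. At day 2 they held 1317 and 2076 in KO and 2185 and 1856 in WT. Where called, the peak ran from a median of -1.79 kb to 4.02 kb from the start of this 4.41 kb gene.

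The KO minus WT difference in the share of libraries called at Phox2a was 0.6 (exact p = 0.0478, adjusted p = 0.979), against a background of 4.1% of 2856 promoters with p under 0.05. In width it was 3.53 kb, from 4.66 ± 2.64 kb in KO and 1.12 ± 2.37 kb in WT (SD, n = 10 each; exact p = 0.0213, adjusted p = 0.283), where 13.9% of promoters passed. In rank it was 14.6 points (exact p = 0.124). KO also exceeded MUT in width by 3.04 kb (exact p = 0.0378, adjusted p = 0.638; 6.98% of 2951 promoters passed) but not by calls (8 against 3 of 10, exact p = 0.103; 0.542% passed). MUT and WT differed by 0.489 kb (exact p = 0.861). These are weak peaks, at percentiles of 4.94 to 55.8, and 0 of 30 libraries had one among their 704 strongest. Libraries called at Phox2a held a median of 2122 peaks and the others 1484; the medians were 2584 and 1396 in WT, 2847 and 1586 in MUT and 2099 and 1820 in KO, in this order. The part of peak number in the difference was not tested. Without WT70 the share differed by 0.4 (exact p = 0.342) and without KO25 by 0.5 (exact p = 0.0885). Without KO15 it was the same 0.6 with fewer splits (exact p = 0.144). The KO minus WT width difference was 2.41 kb without WT70 (exact p = 0.226) and 3.12 kb without KO25 (exact p = 0.0658). The KO minus MUT width difference missed the threshold without KO15, KO25 or CM59, at 2.46 to 2.90 kb.

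**Figure D4:**
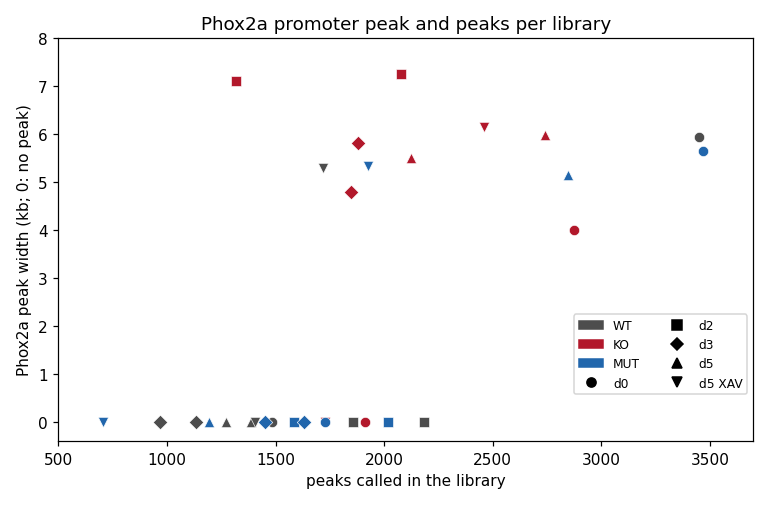
Width of the H3K27me3 peak at the Phox2a promoter in kb (vertical axis, 0 for no peak) against the number of peaks called in the library (horizontal axis), 1 point per library, with colour for genotype and shape for time point. KO points with a peak begin at 1317 peaks per library, and the WT and MUT libraries without one hold 704 to 2185.

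After Benjamini-Hochberg adjustment over all promoters tested, 0 promoters passed 0.05 in any comparison here, and the smallest adjusted p was 0.0661, from day 0 to day 2. KO and WT differed with unadjusted p under 0.05 at 1 of 9 by calls, 1 of 9 by rank and 1 of 9 by width. Of all promoters, 4.1% passed by calls, 16.8% by rank and 13.9% by width. The median KO minus WT rank difference was 1.27 points over the 9 and 4.74 over all 2856 promoters. By rank the gene was Pou4f2, with a mean of 81.5 ± 8.42 in KO against 72.1 ± 12.9 in WT (SD, n = 10 each; exact p = 0.0376, adjusted p = 0.262), with overlapping values. That difference of 9.38 points was 4.41 without WT70 (exact p = 0.374). Without any 1 KO line it kept its size (9.24 to 9.497 points) but missed the threshold, with fewer splits. The Pou4f2 call also ended among the 704 strongest peaks (5.53 points, exact p = 0.549), by highest signal (8.49, exact p = 0.131) and by signal per bp (8.88, exact p = 0.24). By covered share the difference was 6.04% of the 10 kb on either side (exact p = 0.21). Limited to the time points after day 2, KO exceeded WT in rank with p under 0.05 at 4 of 9 genes, where 39.4% of 2229 promoters passed: Pou4f1 by 7.44 points (exact p = 0.0463), Pou4f2 by 15.9 (exact p = 0.0185), Pou4f3 by 3.96 (exact p = 0.0278) and Ebf2 by 2.80 (exact p = 0.0463). In width it did so at Phox2a, by 3.82 kb (exact p = 0.0463), and Ebf1, by 2.26 kb (exact p = 0.0278), where 25% of promoters passed.

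MUT and WT differed with p under 0.05 at 0 of 9 by calls and by rank, where 0.449% and 3.21% of 2895 promoters passed, and at 2 of 9 by width, where 3.97% passed. Tlx1 was 23.4 ± 0.713 kb wide in MUT and 22.8 ± 0.568 kb in WT (SD, n = 10 each; exact p = 0.0211, adjusted p = 1). Without WT72 the Tlx1 difference was 0.468 kb (exact p = 0.0947) and without CM59 0.651 kb (exact p = 0.107). Ebf1 was 6.10 ± 4.88 kb in MUT and 4.34 ± 4.01 kb in WT (SD, n = 10 each; exact p = 0.0478, adjusted p = 1). The Ebf1 difference missed the threshold without WT70, WT72, CM40 or CM69 (0.962 kb without CM40), and among the 704 strongest peaks it turned to -0.166 kb (exact p = 0.889). KO and MUT differed by rank at Tlx3, 93.4 ± 2.78 against 90.5 ± 4.41 (exact p = 0.0458, adjusted p = 0.708; 6.74% of promoters passed). Without the CM59 library of day 5 XAV, which held 704 peaks, the Tlx3 difference was 1.80 points (exact p = 0.0846), and it missed the threshold without CM59 (1.87, exact p = 0.165) or any 1 KO line (2.34 to 3.55). Ebf3 was narrower in KO than in MUT, with a difference of -2.98 kb (exact p = 0.0203, adjusted p = 0.602) and of -1.503 kb without KO25 (exact p = 0.0622). The Ebf3 difference also missed the threshold, with fewer splits, without CM59 (-3.17 kb, exact p = 0.342) or CM40 (-2.55 kb, exact p = 0.354).

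At day 0 both KO libraries had narrower peaks than both WT libraries at 4 of 9 genes (Pou4f3, Tlx1, Tlx3 and Ebf3), as did 26.3% of 2060 promoters. Both lay below both MUT libraries at 5 of 9 (Pou4f1, Pou4f2, Pou4f3, Tlx1 and Ebf3), as did 31.8% of 2076. The Pou4f3 widths were 8.90 and 2.76 kb in KO, 11.8 and 11.9 kb in WT and 9.54 and 10.0 kb in MUT. With 2 libraries against 2 the smallest exact p is 0.333, so no test was made at a single time point.

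**Figure D5:**
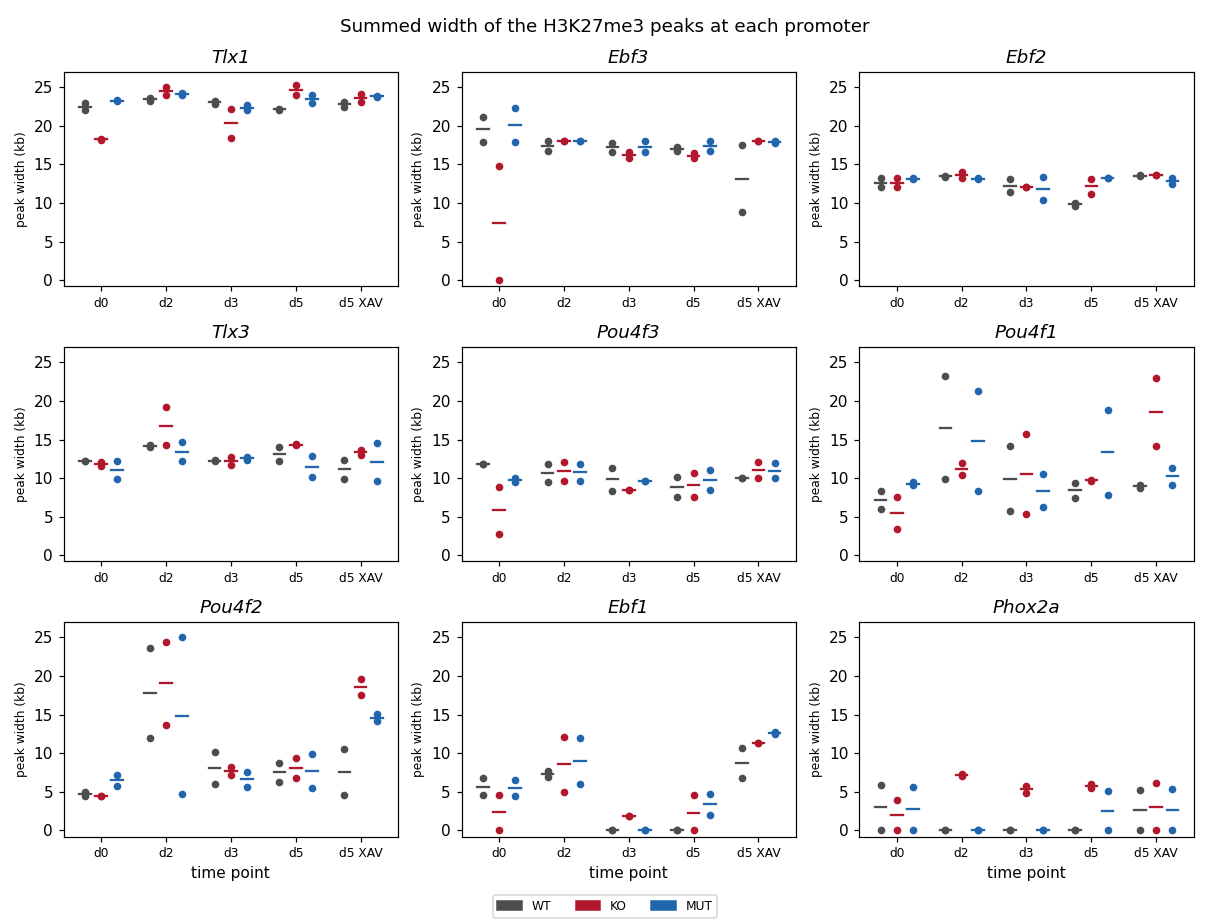
Summed width in kb (vertical axis) of the H3K27me3 peaks at each promoter across the time points on the horizontal axis, where dots are single lines and short bars are genotype means (2 lines). Tlx1 lies at 18.2 and 18.3 kb in the 2 KO libraries of day 0. At day 5 XAV, Pou4f2 lies between 14.2 and 19.6 kb in KO and MUT and at 10.6 and 4.54 kb in WT.

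Between day 0 and day 2, 4 of 9 promoters changed rank with p under 0.05, where 27.3% of 2778 promoters did. Pou4f2 rose by 14.25 points, from 70.9 to 85.1 (exact p = 0.037, adjusted p = 0.144). Tlx3 fell by 4.24 points, from 94.6 to 90.3 (exact p = 0.00926, adjusted p = 0.0661), Ebf2 by 3.11 (exact p = 0.0185) and Tlx1 by 0.60 (exact p = 0.00926). The 4 directions turn when peaks are ranked by signal per bp. The Pou4f2 difference was then -8.88 points (exact p = 0.315), and those of Tlx1, Tlx3 and Ebf2 were 10.1 (exact p = 0.0185), 1.21 (exact p = 0.713) and 12.7 (exact p = 0.0185). The Ebf2 and Pou4f2 calls also ended when single lines were left out, with the same direction, and Tlx1 and Tlx3 were the pair that kept p under 0.05 without each line in turn. From day 2 to day 3, Ebf1 passed, as above, and the other 8 did not. From day 3 to day 5 Tlx1 passed, with a rise of 0.59 points (exact p = 0.037, adjusted p = 0.221), in a step in which 17.3% of 2254 promoters passed and the median difference was 7.24; it missed the threshold without WT70, WT72, CM59 or CM69 (0.47 to 0.72 points).

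XAV changed rank with p under 0.05 at Ebf1, above, and at Ebf3. Ebf3 was at 97.3 at day 5 and 93.8 with XAV (exact p = 0.037, adjusted p = 0.594), and with lines paired by sign flips the exact p was 0.125. The Ebf3 difference was -1.72 without WT70 (exact p = 0.111) and missed the threshold without any other line too (-2.41 to -5.29), with fewer splits. The Pou4f2 peak was wider with XAV in all 4 KO and MUT lines, from 9.40 to 17.52 kb in KO1, 6.83 to 19.6 kb in KO15, 9.85 to 14.2 kb in CM59 and 5.497 to 15.1 kb in CM69. In WT70 it went from 6.28 to 10.6 kb and in WT72 from 8.77 to 4.54 kb. The median width of all peaks rose from 5522 to 5873 bp in KO1, 4709.5 to 5643 in KO15, 4165 to 7715.5 in CM59 and 4900 to 5095 in WT70. It fell from 6084 to 4890 bp in CM69 and from 5094 to 4304 in WT72. Width with and without XAV was not compared over all promoters, so no share is given. Whether the Pou4f2 change differed between genotypes was not tested, and the rank difference over all lines was 10.6 points (exact p = 0.111). Phox2a was called in 3 of 6 libraries with and without XAV.

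The mark stayed near the start of the long EBF genes. Peaks covered 0 to 6.02 kb of the 391 kb Ebf1 gene, 6.67 to 8.56 kb of the 198 kb Ebf2 gene and 3.02 to 6.73 kb of the 121 kb Ebf3 gene. Among the short genes, Tlx1 and Tlx3 were covered at 100% in all libraries, Pou4f2 at 66.2% to 100% and Pou4f3 at 72.4% to 100%, whereas the median was 22.7% for Pou4f1 and 0% for Phox2a. At 0 of the 9 genes did the promoter peak also reach the promoter window of another protein-coding gene.

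Promoters whose rank percentile moved most like that of a member over the 30 libraries were picked by Pearson's r, as a description across libraries that share lines and peak numbers. Phox2a moved most like Phf19 (r = 0.908), Npw (0.903) and Sncb (0.877). Ebf1 moved like Alx1 (0.758), Tfap2b (0.731) and Bcor (0.715). Tlx3 moved like Ihh (0.936), Alx4 (0.921) and Sfrp5 (0.92), and Ebf2 like Foxb2 (0.933), Elfn1 (0.919) and Ecel1 (0.891). Pou4f3 and Ebf3 were each other's nearest (0.881), and both had their lowest value in KO25 at day 0. Pou4f1 was nearest to Irf5 (0.81), Pou4f2 to Dlx5 (0.796) and Tlx1 to Gata2 (0.817).

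Of 23 related factors of neuron identity, 18 were called in all 30 libraries, among them Tlx2, Prdm12, Lbx1, Lmx1b, Gata2 and Gata3, and the other 5 in some. By rank, KO minus WT passed upward at 7 of 23 and downward at 1, against 16.8% of all promoters in either direction, with a median of 2.43 points against 4.74 over all promoters. Insm1, a zinc finger factor of neuroendocrine cells, was called in 10 KO and 6 WT libraries and differed by 33.9 points (exact p = 0.0206, adjusted p = 0.217). Runx3, the downward one, had mean percentiles of 68.2 in KO, 78.0 in WT (exact p = 0.034) and 57.3 in MUT (exact p = 0.00283 against WT, adjusted p = 1).

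Of 20 genes that neurons of these types use, 3 were called in all libraries (Chat, Gad1 and Gad2, enzymes of acetylcholine and GABA synthesis) and 4 in none (Dbh, Avil, Dcx and Stmn2). KO minus WT by rank passed upward at 3 of the 14 tested and downward at 1, beside the same 16.8%. Ret, a receptor of autonomic neurons, had mean percentiles of 73.1 and 40.8 in KO and WT (exact p = 0.00231, adjusted p = 0.17), and Ntrk3, a neurotrophin receptor, at 60.2 and 31.7 (exact p = 0.00977). Slc17a6, the vesicular glutamate transporter, ran the other way. It was called in 1 of 10 KO, 3 of 10 MUT and 9 of 10 WT libraries, with exact p of 0.00231 for KO (adjusted p = 0.844) and 0.0139 for MUT (adjusted p = 1) against WT.

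Lists of regions deposited with the series held all 9 genes. Phox2a overlapped a region of 7.14 kb on the gain-gain list of 1443 regions, at chr7:101815463-101822598. Of the 3178 promoters called in at least 2 libraries, 39.7% were on that list. The other 8 overlapped the list gained in KO at day 5 XAV (1897 regions), which held 55.7% of those promoters and 86.1% of the 439 called in all 30 libraries. Pou4f1, Pou4f2, Tlx1, Tlx3, Ebf2 and Ebf3 were also on the loss-loss list (792 regions; 20.6% and 38.7% of these promoters), and Pou4f3 was on the loss-gain list (748 regions; 20.9% and 21.9%). The lists were selected on the KO and WT libraries used here and so are not independent evidence of direction.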

How the data were processed

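H3K27me3 CUT&RUN was measured in 30 libraries, with 30 IgG libraries as controls. Per the study's methods, the authors used Trim Galore for trimming and Bowtie for alignment to GRCm38.p6, marked duplicates with Picard and called stringent peaks per library with SEACR against IgG; the submitters' processing notes name R 4.0.5, DiffBind 3.0.15 and deepTools 3.4.3, and list the other tools without a version. The deposited peak values are a total and a highest signal, not scaled by the authors for library size, and read depth is unknown. Promoters were windows of 1.5 kb on either side of GENCODE start sites; 1 bp under a peak made a call. Calls, rank percentile and summed width came from Python 3.11.15 (NumPy 2.4.6, figures in Matplotlib 3.10.9). Groups were compared by exact two-sided permutation within time points (genotypes, 7776 splits) or within genotypes (time steps and XAV, 216 splits), over all promoters called in at least 2 libraries of the comparison, with Benjamini-Hochberg adjustment over all of them; the smallest p these splits allow is 0.000257 and 0.00926. The scripts were tested on simulated data. The same 6 lines were sampled at day 5 with and without XAV, which pairs those samples; the deviations of the lines correlated by 0.168 in WT, 0.171 in KO and -0.337 in MUT over 2348 promoters. All 9 genes were named, related genes only where p was under 0.05 or where they were called in 0 or all 30 libraries, and likeness as the 3 highest correlations. The genes and lists were chosen with earlier results of these data known. Alternatives were other windows, overlaps, rankings, an equal number of peaks, single lines left out, later time points, pairing and covered share. Leaving out a line also leaves fewer splits, so p can rise where the difference does not shrink. The values of 1 related gene are not reported here.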

Additional observations from a re-analysis of the deposited data

How the results depend on the processing

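With 704 peaks taken from every library, the difference in genes called per library went from 0.7 to -0.4 for KO minus WT and from 0.4 to -0.3 for KO minus MUT. Leaving out 1 line gave 0.4 to 0.9 for KO minus WT, 0.1 to 0.5 for MUT minus WT, 0.1 to 0.6 for KO minus MUT and 0.167 to 0.833 for XAV minus day 5, against 0.7, 0.3, 0.4 and 0.5 with all lines. With the replicate block that pairs each line at day 5 with and without XAV, the last value was 0.5; the block ended the Ebf3 call (-3.51 points, exact p = 0.125). The sign of a rank difference turned in 111 of 882 alternative values, 88 of them with p of at least 0.05 on both sides, such as Ebf1 in KO minus WT (-1.67 to 13.3 after day 2). The 882 include covered share, which is a percentage of the 10 kb on either side and not a rank, set against the rank difference. The other 23 sign turns were as follows. From day 0 to day 2, ranking by highest signal gave 2.89 for Ebf2, -4.74 for Pou4f2, 7.17 for Tlx1 and 3.36 for Tlx3, ranking by signal per bp 12.7, -8.88, 10.1 and 1.21 for the same genes, and covered share, a measure chosen after seeing the data, 2.94 for Ebf2, 4.51 for Tlx1 and 11.96 for Tlx3. Without KO25 that step gave -1.67 for Ebf3 and -4.62 for Pou4f3, and leaving out other lines gave up to 30.9 and 7.19, the values without KO15. From day 2 to day 3, highest signal gave -6.59 for Ebf2 and -7.94 for Ebf3, signal per bp -13.6 for Ebf2, -13 for Ebf3 and -5.11 for Tlx1, covered share -6.61 for Ebf2 and -8.69 for Tlx3, and the equal number of peaks 3.79 for Pou4f3. Covered share gave 1.07 for Ebf3 with XAV. After day 2, KO minus WT at Pou4f3 was 3.96. Beside these 23 rank values, 1 width difference with p under 0.05 on 1 side turned: that of Ebf1 in MUT minus WT, to -0.166 kb with the equal number of peaks. The causes were not tested. Direction and side of the threshold were kept by 681 of those 882 values and by 249 of 297 alternative values of width. For calls this says little, since 6 genes were called in all 30 libraries; of the other 3 genes, 118 of 126 values kept both. Read depth is unknown, at a single time point the smallest exact p is 0.333, and lines changed between day 2 and day 3.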
